A study of Mus musculus with 108 samples.

Results

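Metabotropic glutamate receptors, encoded by the Grm genes, were followed through the brain of Cul3 mutant and wild-type mice. The members were Grm2, Grm3, Grm4, Grm5, Grm7 and Grm8, the 6 genes named by their symbols among the 53465 rows of the gene table, and all 6 passed the filter on low counts in every comparison. They were selected by symbol. Each mouse had given 1 RNA-seq library from cortex (CX), 1 from hippocampus (HIP) and 1 from cerebellum (CB), late in gestation (E17.5), at postnatal day 7 (P7) or in adulthood (P35). Mice were wild-type (WT) or heterozygous (HET) for Cul3, with 6 mice of each genotype at each period, or 36 mice and 108 libraries.

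HET animals carried a germline frameshift insertion in an exon of 1 copy of Cul3, made by CRISPR/Cas9 in a single founder line that was bred to WT mice of the strain labelled C56Bl/6N. The mutation was therefore present in every cell and throughout life, and no group received a treatment. Cul3 encodes the scaffold of a ubiquitin ligase. Sex was not given in the labels. For 2 adult mice the genotype in the labels and in the quality table of the study were opposite, so their 6 libraries were left out and 5 WT and 5 HET adult mice remained, 102 libraries in all.

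Metabotropic glutamate receptors are G protein-coupled receptors that sense glutamate outside the synaptic ion channels and tune synaptic strength over a slower time course. Group I, here Grm5, couples to Gq, phospholipase C and calcium release and sits mainly on the postsynaptic side. Group II (Grm2, Grm3) and group III (Grm4, Grm7, Grm8) couple to Gi/o, lower cyclic AMP and mostly restrain transmitter release from nerve terminals. Grm3 is also used by astrocytes, and Grm4 is known from the parallel fibre terminals of cerebellar granule cells.

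The 6 genes are spread over 5 chromosomes of the GRCm38 assembly. Grm2 (ENSMUSG00000023192) lies at chr9:106643095-106656082 on the minus strand and Grm3 (ENSMUSG00000003974) at chr5:9485541-9725170 on the minus strand. Grm4 (ENSMUSG00000063239) lies at chr17:27422387-27521403 on the minus strand and Grm5 (ENSMUSG00000049583) at chr7:87584168-88134907 on the plus strand. Grm7 (ENSMUSG00000056755) lies at chr6:110645581-111567230 on the plus strand, and Grm8 (ENSMUSG00000024211) at chr6:27275119-28135178 on the minus strand. The genes differed widely in extent, from 13.0 kb for Grm2 to 921.6 kb for Grm7. Each gene overlapped at least 1 other annotated gene in GENCODE M21, whose reads may be shared with it, and the antisense genes Gm28111 at Grm2 and Gm20387 at Grm7 were counted separately in the stranded libraries.

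Libraries held between 15126113 and 44411282 assigned reads. Levels are given as CPM, counts relative to library size after TMM scaling over the 102 libraries, as mean ± SD over mice. In WT mice the summed level of 5 forebrain markers was on average 1290 CPM at E17.5, 525 CPM at P7 and 289 CPM at P35 in CX, against 39.1, 30.3 and 4.91 CPM in CB. The summed level of 6 cerebellar markers was 840, 1595 and 2131 CPM in CB and at most 41.2 CPM in CX. For 5 hippocampal markers it was 700 to 1284 CPM in HIP against at most 200.1 CPM in CX, so these group means followed the labels of the tissues. Single libraries were less clear. The hippocampal list was at 230 ± 105 CPM in adult WT CB, with up to 388 CPM, and the cerebellar list reached 268 CPM in E17.5 HIP. Cul3 itself was called as lower in HET mice at every period in every region, 9 datasets in all, with means between 50.1% and 61.0% of WT and no overlap of the genotypes. In bulk tissue, fewer cells of a type and less RNA per cell cannot be told apart.

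The receptor genes differed in level and in the place and time of their highest abundance, which was CX at P7 for Grm2, Grm3 and Grm7, adult CX for Grm8, adult HIP for Grm5 and adult CB for Grm4. Levels of different genes are compared per kb of the longest coding transcript. In adult WT CX, Grm3 was highest with 51.6 CPM per kb, followed by Grm5 with 44.3, Grm7 with 21.1, Grm2 with 10.4, Grm8 with 7.82 and Grm4 with 4.82. In adult WT CB the order was another one: Grm4 led with 113 CPM per kb, Grm3 had 14.8, Grm7 5.60, Grm2 3.21, Grm8 2.63 and Grm5, the leading receptor of HIP, only 1.70. Divided by the union of all exons instead, Grm8 fell below Grm4 in CX, with 3.05 against 3.71 CPM per kb, and below Grm5 in CB, with 1.02 against 1.34, while the other genes kept their places in these 2 orders.

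**Figure D1:**
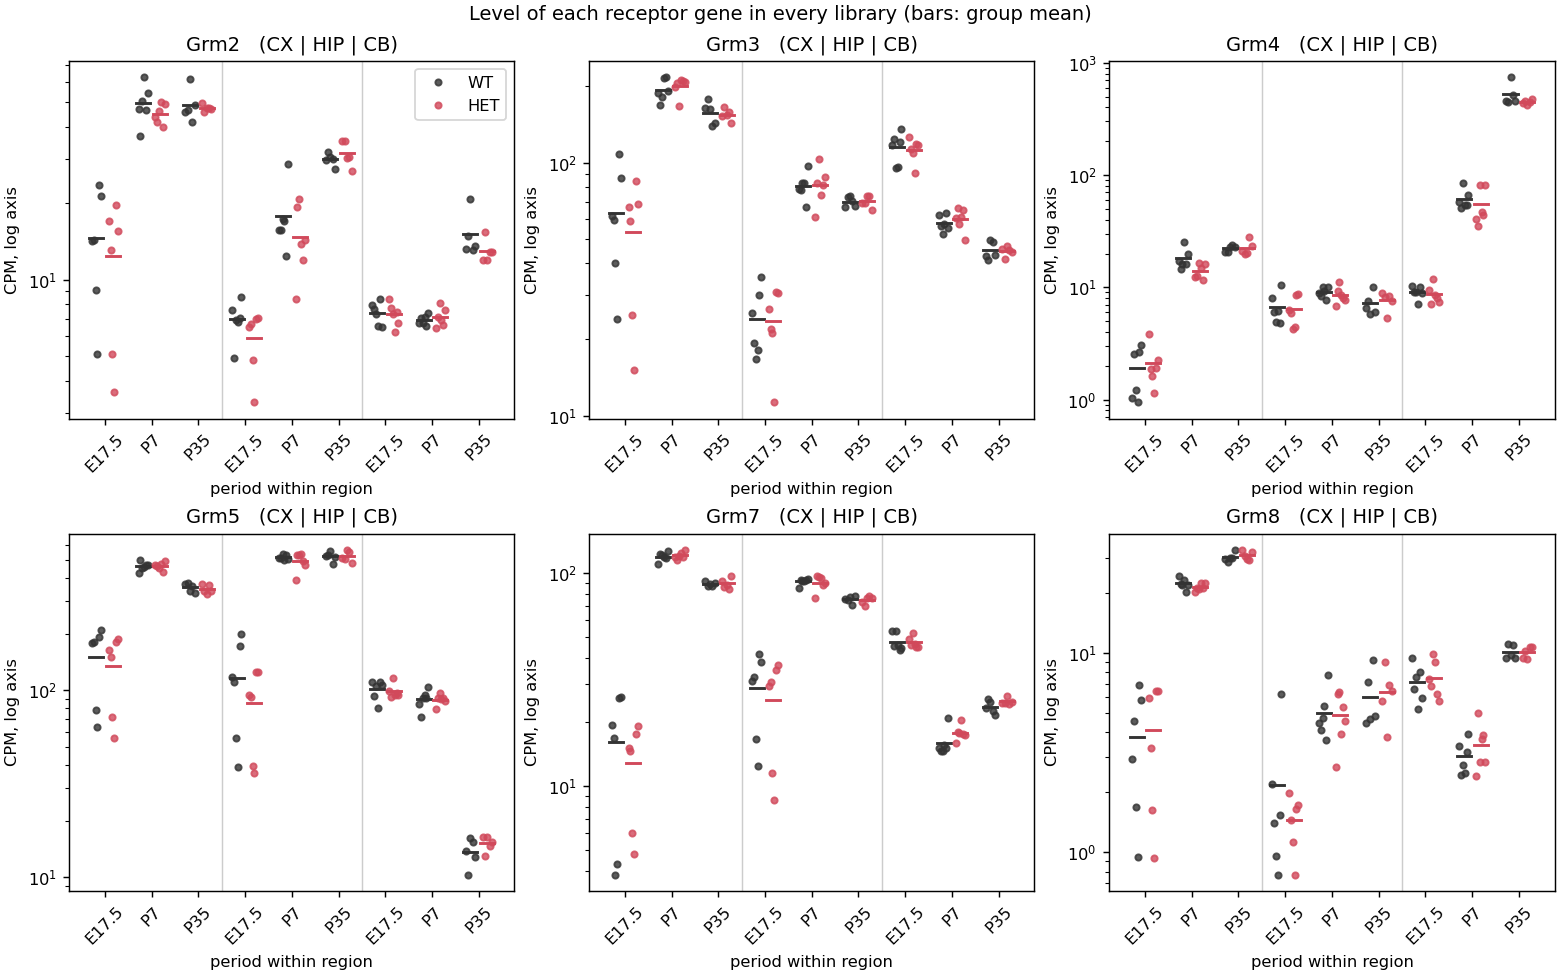
Level of the 6 receptor genes in every library used. Each point is 1 mouse, the x axis gives the period within CX, HIP and CB, the y axis is CPM on a log scale, black is WT, red is HET and bars are group means. Adult cerebellum stands apart by its high Grm4, 523 CPM in WT, and its low Grm5, 13.7 CPM, and the black and red points of each group overlap.

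Between E17.5 and P7 the receptors of the forebrain rose together. In CX all 6 members were higher at P7 in WT mice, each with an adjusted p of at most 9.23e-06 (edgeR quasi-likelihood test, Benjamini-Hochberg over all genes), where 81.9% of all genes tested were called at an adjusted p of 0.1 or less. In HIP all 6 also rose, where 78.0% of all genes were called. The log2 changes of the members ranged from 1.56 to 3.20 in CX and from 0.42 to 2.14 in HIP, with medians of 2.11 and 1.497, against medians over all genes of 0.01 and −0.0046 and median absolute changes of 0.74 and 0.62.

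Grm5, the postsynaptic group I receptor, had the highest mean CPM of the 6 genes in the forebrain at P7 and P35, although per kb it was below Grm3 in CX. Its level in WT CX ran from 63.9 to 211 CPM with a median of 179.8 at E17.5, and from 424 to 496 CPM with a median of 462 at P7. In WT HIP it lay between 39.0 and 201 CPM with a median of 114 at E17.5, and between 499 and 536 CPM with a median of 510 at P7. The 2 periods did not overlap in either region, and the log2 change was 1.56 (SE 0.22) in CX and 2.14 (SE 0.28) in HIP. HET mice, which are other animals, gave 1.72 and 2.49.

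The largest forebrain change among the receptors of WT mice was that of Grm4 in CX, although it stayed a scarce transcript there. In HET mice Grm7 changed more in CX, by 3.18 against 2.68 for Grm4. Grm4 in WT CX went from between 0.94 and 3.07 CPM (median 1.89) at E17.5 to between 14.5 and 25.1 CPM (median 16.6) at P7. The log2 change was 3.20 (SE 0.24). In HIP the same gene went from 6.73 ± 2.22 to 9.09 ± 0.91 CPM (n = 6 each), a log2 change of 0.42 (SE 0.18, adjusted p = 0.043 by the quasi-likelihood test) that was no longer called without the E17.5 mice of prefix S3, which are described further on (0.30, adjusted p = 0.17). The change in HIP minus that in CX was −2.79 on the log2 scale (95% interval −3.34 to −2.24), a difference that passed the test of period by region in edgeR, chosen after the data were seen.

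Grm7, the low-affinity receptor of the presynaptic active zone, rose from 16.03 ± 9.96 to 119 ± 5.52 CPM in WT CX and from 28.7 ± 11.7 to 91.3 ± 3.07 CPM in WT HIP (n = 6 each). Grm8, a further presynaptic receptor of group III, rose from 3.80 ± 2.35 to 22.3 ± 1.45 CPM in CX, and from 2.18 ± 2.04 to 5.01 ± 1.44 CPM in HIP. The E17.5 libraries of both genes varied several-fold in CX. Their log2 changes were 2.85 (SE 0.35) and 2.51 (SE 0.30) in CX.

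The group II receptors followed the same course. Grm2, an inhibitory autoreceptor of glutamatergic terminals, had 14.6 ± 7.01 CPM at E17.5 and 49.7 ± 8.64 CPM at P7 in WT CX. Grm3 had 63.4 ± 30.5 and 194 ± 19.2 CPM. Both had lower levels in HIP, where Grm2 went from 6.98 ± 1.19 to 17.8 ± 5.57 CPM and Grm3 from 24.2 ± 7.36 to 81.1 ± 9.64 CPM. The fold changes of the 2 genes were close in CX (3.29 and 2.96) and were 2.53 and 3.33 in HIP. The summed level of 6 astrocyte markers rose over the same interval from 339.7 ± 27.5 to 920.5 ± 35.8 CPM in CX and their part in the rise of Grm3 was not tested.

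All 6 receptors rose in the forebrain, and the bases upstream of the start are shown for the 4 of them, Grm2, Grm3, Grm7 and Grm8, that had RefSeq windows of GRCm38.p6. Where a gene had several windows the one nearest its annotated 5′ end was taken. The bases run 5′ to 3′ on the strand of the gene, end at the RefSeq start or at the GENCODE 5′ end, whichever comes first, and carry the letters GGGCGG, the GC box that Sp1 family factors bind, in capitals. The stretches lie at chr9:106656110-106656359 (minus strand, Grm2), chr5:9725353-9725602 (minus strand, Grm3), chr6:110645348-110645580 (plus strand, Grm7) and chr6:28135179-28135396 (minus strand, Grm8).
Grm2: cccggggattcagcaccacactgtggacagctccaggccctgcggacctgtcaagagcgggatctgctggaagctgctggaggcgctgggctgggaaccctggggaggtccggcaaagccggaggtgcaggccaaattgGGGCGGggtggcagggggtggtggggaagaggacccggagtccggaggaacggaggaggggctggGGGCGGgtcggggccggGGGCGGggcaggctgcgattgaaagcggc
Grm3: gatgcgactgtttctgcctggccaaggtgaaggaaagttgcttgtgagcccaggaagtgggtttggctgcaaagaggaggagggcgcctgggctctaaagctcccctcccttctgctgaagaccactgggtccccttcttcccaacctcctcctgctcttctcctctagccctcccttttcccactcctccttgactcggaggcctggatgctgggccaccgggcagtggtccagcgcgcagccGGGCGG
Grm7: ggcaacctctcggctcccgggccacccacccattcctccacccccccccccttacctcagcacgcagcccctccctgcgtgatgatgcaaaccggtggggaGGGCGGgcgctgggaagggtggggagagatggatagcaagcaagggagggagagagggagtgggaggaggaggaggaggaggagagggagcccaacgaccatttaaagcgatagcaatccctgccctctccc
Grm8: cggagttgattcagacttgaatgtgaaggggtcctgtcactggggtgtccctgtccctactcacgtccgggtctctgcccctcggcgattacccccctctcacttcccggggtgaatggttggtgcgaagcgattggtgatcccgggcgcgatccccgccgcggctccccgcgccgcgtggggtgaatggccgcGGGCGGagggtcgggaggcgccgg

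All 4 windows of 250 upstream bases held a GC box on either strand, 3 in Grm2 and 1 in each of the other genes, while 32.7% of the 32851 promoter windows of the same length held one. The windows were rich in G and C, with 71.2% for Grm2, 62.4% for Grm3, 65.2% for Grm7 and 68.4% for Grm8, against a median of 52.4% over all windows. These counts and shares are over the full 250 bases before the RefSeq start, of which 233 are printed for Grm7 and 218 for Grm8. No window held the E-box CANNTG, which 66.2% of all windows held, or the TATA box TATAAA, which 12.4% held. The CCAAT box was found at 1 place for Grm2, where it shares 1 base with a GC box, and at 2 places for Grm8, and 33.8% of all windows held it. The cyclic AMP response half-site TGACG was found in 0 of the 4 windows and in 17.8% of all windows. Grm8 had 29 CpG dinucleotides, Grm2 16, Grm7 9 and Grm3 8. These are matches of letters and not sites shown to be bound.

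In the cerebellum the direction differed by receptor over the same interval. Of the 6 members, Grm4 rose, Grm3, Grm7 and Grm8 fell, and Grm2 and Grm5 were not called, where 71.2% of all genes were called. Grm7 had been higher in CB than in the forebrain at E17.5 and dropped from between 43.6 and 53.6 CPM (median 45.5) to between 14.6 and 20.9 CPM (median 15), without overlap. It fell by 1.59 on the log2 scale (SE 0.09). Grm8 fell by 1.24 (SE 0.14), from 7.13 ± 1.53 to 3.03 ± 0.58 CPM, and Grm3 fell by 1.01 (SE 0.08), from 115 ± 16.3 to 57.7 ± 4.30 CPM. Grm5 had 102 ± 12.1 CPM at E17.5 and 89.5 ± 10.8 CPM at P7, a log2 change of −0.20 (SE 0.10) at the edge of the threshold (adjusted p = 0.10). Grm2 had 7.42 ± 0.75 and 6.94 ± 0.30 CPM.

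The summed level of the 6 astrocyte markers in WT CB was 968 CPM at E17.5, 2201 CPM at P7 and 4267 CPM at P35, where Grm3 was at 115, 57.7 and 45.1 CPM, and their part in the change of Grm3 was not tested.

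Grm4 set the cerebellum apart. In WT CB it had between 7.06 and 10.3 CPM at E17.5 (median 9.04) and between 51.1 and 85.5 CPM at P7 (median 56.1), and the 5 adult WT mice had 448, 453, 457, 513 and 742 CPM. The 5 adult HET mice had 418, 442, 446, 455 and 478 CPM. None of the 3 periods overlapped, and the log2 change was 2.75 (SE 0.15) from E17.5 to P7 and 3.10 (SE 0.15) from P7 to P35, or 6.73-fold and 8.55-fold. HET mice gave 2.63 and 3.05. The summed level of 6 granule cell markers rose in the same WT libraries from 406 ± 84.5 to 1321 ± 76.5 and 5333 ± 504 CPM, and their part in the rise of Grm4 was not tested.

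The other receptors of the cerebellum changed again between P7 and adulthood, when all 6 members were called, among 79.4% of all genes. Grm5 fell from between 71.7 and 104 CPM (median 90.7) to 10.3, 12.8, 13.8, 15.4 and 16.1 CPM in the 5 adult WT mice, a drop that left no overlap. It fell by 2.70 on the log2 scale (SE 0.12), or 6.49-fold, and by 2.54 in HET mice. Grm8 and Grm7 came back up from their P7 level, Grm8 to 10.1 ± 0.84 CPM (log2 change 1.75, SE 0.15) and Grm7 to 23.5 ± 1.65 CPM (0.57, SE 0.09). The adult level of Grm7 was still lower than that of E17.5, 47.6 ± 4.55 CPM, whereas that of Grm8 was above the E17.5 mean with overlapping ranges. Grm2 rose 2.19-fold to 15.1 ± 3.26 CPM (1.13, SE 0.11), and Grm3 fell a little further (−0.35, SE 0.09).

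Grm2 is known in the cerebellum from Golgi cells. A list of 3 genes of Golgi and glycinergic interneurons went from 70.6 ± 4.68 to 58.7 ± 10.7 and 169.9 ± 19.9 CPM in WT CB over the 3 periods, beside 7.42, 6.94 and 15.1 CPM for Grm2, and its part in the change of Grm2 was not tested. The same list was at 178 ± 12.1 CPM in adult WT CX, so it is not particular to the cerebellum.

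**Figure D2:**
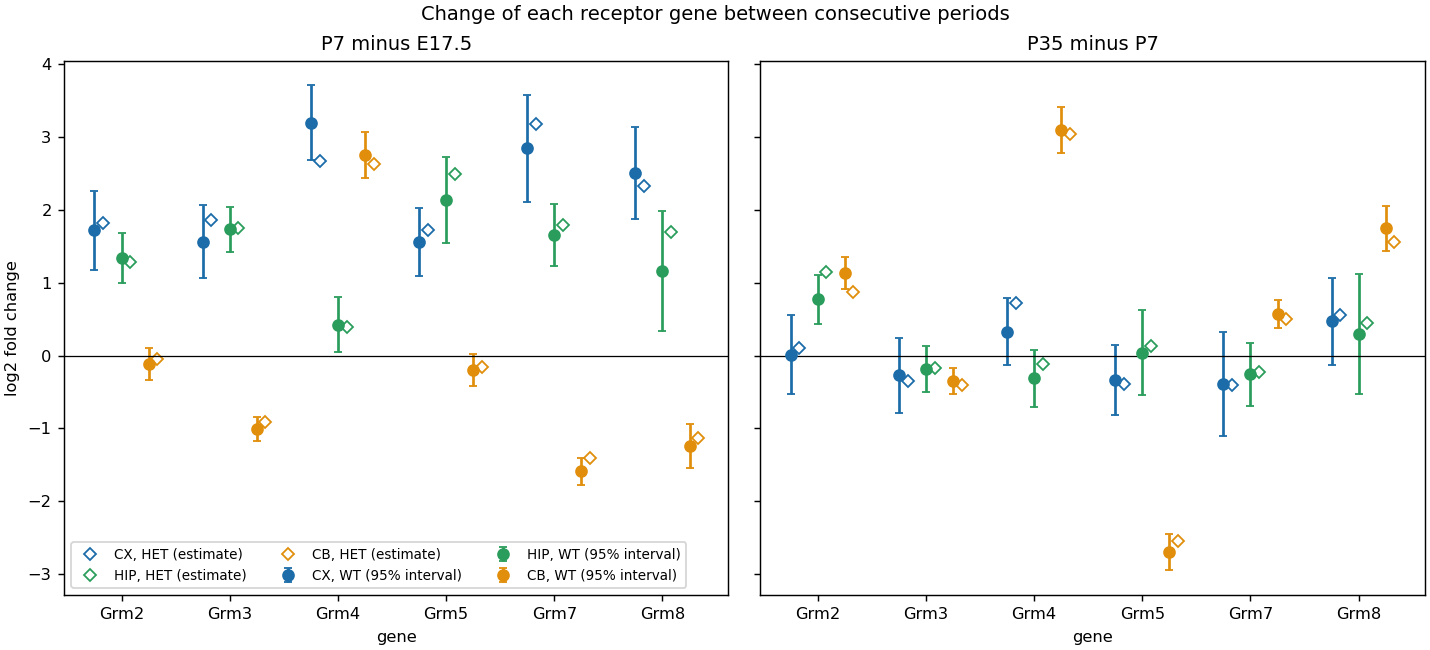
Log2 fold change of the 6 receptor genes between consecutive periods. The x axis gives the gene, the y axis the log2 fold change, filled circles are WT mice with 95% intervals and open diamonds the estimates in HET mice, in blue for CX, green for HIP and orange for CB. From E17.5 to P7 the blue and green points lie above 0 and the orange points of Grm3, Grm7 and Grm8 below, and from P7 to P35 the orange points spread from 3.10 for Grm4 to −2.70 for Grm5.

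Between P7 and adulthood the forebrain changed far less. With the 3 periods in 1 fit, 0 of the 6 members were called in CX, where 67.7% of all genes were called, and only Grm2 was called in HIP, where 62.7% were called. In CX the planned fit of WT and HET mice together called Grm4, Grm5, Grm7 and Grm8, and the HET mice alone Grm4 (0.72) and Grm8 (0.56). The joint fit also called more genes in general, 94494 over all period comparisons against 81833 in WT mice alone. The share of all genes called in CX is not given for the joint fit or the HET fit, so these calls cannot be set against it. The count of 0 by edgeR in WT mice goes with 0 members at an unadjusted p under 0.05 and 0 called by DESeq2. The count moved with the E17.5 libraries that share the fit. When P7 and P35 were fitted on their own, an alternative added after the data were seen, 5 of the 6 members were called in CX beside 72.4% of all genes, and 4 in HIP beside 74.3%. With the E17.5 mice of prefix S3 left out, 5 were called in CX beside 71.4% and 2 in HIP beside 66.2%.

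The sizes of these forebrain changes hardly depended on the fit. In CX, Grm7 went from 119 ± 5.52 CPM at P7 to 86.6, 86.8, 88.2, 89.5 and 91.7 CPM in the adult WT mice, with no overlap, a log2 change of −0.40 (SE 0.05) in the fit of the 2 periods alone. Grm5 fell from 461 ± 23.3 to 356 ± 19.0 CPM (−0.34, SE 0.06), Grm3 from 194 ± 19.2 to 157 ± 16.4 CPM (−0.27, SE 0.08), and Grm8 rose from 22.3 ± 1.45 to 30.2 ± 1.63 CPM (0.47, SE 0.06). Grm4 had 18.1 ± 3.84 and 22.2 ± 1.49 CPM, with overlapping ranges, and a log2 change of 0.33 (SE 0.12). Grm2 stayed uncalled, with 49.7 ± 8.64 and 48.9 ± 7.59 CPM and a log2 change of 0.01 (SE 0.12).

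In HIP, Grm2 was the receptor called with the 3 periods in 1 fit, and it went from between 12.4 and 28.6 CPM (median 16.4) at P7 to 27.4, 29.6, 29.9, 30.4 and 31.9 CPM in adult WT mice. The log2 change was 0.77 (SE 0.16) in WT and 1.15 in HET mice, and the highest P7 library overlapped the adult ones. With the 2 periods fitted on their own, Grm3, Grm4 and Grm7 were called as lower in adult HIP as well. Grm7 went from between 85.3 and 93.8 CPM at P7 to between 70.4 and 78.1 CPM in adult WT mice, without overlap, a log2 change of −0.26 (SE 0.04) that was also called without the S3 mice. Grm3 and Grm4 had log2 changes of −0.19 (SE 0.07) and −0.32 (SE 0.13). Grm5 had 515 ± 14.9 and 521 ± 29.2 CPM, a log2 change of 0.04 with a 95% interval from −0.55 to 0.63 with the 3 periods in 1 fit. In the fit of the 2 periods alone the change of Grm5 was 0.03 (SE 0.04) and was not called.

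The course of the receptors therefore differed between regions, which was tested as such. In WT mice all 6 members passed the test of period by region with mouse as a block, among 87.7% of all genes. The change from E17.5 to P7 was lower in CB than in CX by 4.74 on the log2 scale for Grm7 (SE 0.32), 3.98 for Grm8 (SE 0.37), 2.70 for Grm3 (SE 0.17), 1.94 for Grm5 (SE 0.22) and 1.92 for Grm2 (SE 0.26), among 69.6% of genes called for this term. The value for Grm4, −0.49 (95% interval −1.03 to 0.04), was not called. For the change from P7 to P35, CB exceeded CX by 2.74 for Grm4 (SE 0.24), 1.28 for Grm8 (SE 0.36), 1.10 for Grm2 (SE 0.26) and 0.96 for Grm7 (SE 0.31) and fell short of it for Grm5 (−2.37, SE 0.23), among 61.0% of genes called. Between HIP and CX, 4 members were called for the first interval, among 38.6% of genes, and 2 for the second, among 17.6%. Those were Grm4, Grm5, Grm7 and Grm8 for the first and Grm2 and Grm4 for the second.

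From P7 on, all 6 receptors differed between regions. At P7 all members differed between HIP and CX, between CB and CX and between CB and HIP in WT mice, with mouse as a block, where 57.0%, 82.9% and 78.2% of all genes were called. The same held at P35 for 51.5%, 75.4% and 75.1% of genes. Grm4 was the exception in direction: it was higher in CB than in CX by 1.82 on the log2 scale at P7 (SE 0.13) and by 4.54 at P35 (SE 0.16), or 23.2-fold, whereas the 5 other members were lower in CB than in CX at both ages. Grm5 was lower in adult CB than in adult HIP, a log2 difference of −5.25 (SE 0.11), or 38.0-fold, and Grm4 was 72.6-fold higher there than in HIP. In both postnatal periods Grm5 was the only member with a higher level in HIP than in CX, by 0.14 at P7 (SE 0.06) and by 0.53 at P35 (SE 0.09). The small difference at P7 lost its call when WT replicate 1, 3, 5 or 6 was left out (values from 0.12 to 0.15), and the value in HET mice was 0.06 and was not called.

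Within the adult WT forebrain the log2 difference between HIP and CX was widest for Grm8, at 30.2 ± 1.63 CPM in adult CX against 6.04 ± 2.07 CPM in adult HIP, or −2.37 (SE 0.15). It was smallest for Grm7, with 88.5 ± 2.14 and 75.2 ± 2.98 CPM (−0.25, SE 0.05). Grm3 had 157 ± 16.4 and 70.1 ± 3.21 CPM, and Grm2 48.9 ± 7.59 and 29.8 ± 1.64 CPM.

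At E17.5 the directions were others. Grm3, Grm4, Grm7 and Grm8 were higher in CB than in CX, by 1.01 (SE 0.18), 2.35 (SE 0.26), 1.92 (SE 0.35) and 1.20 (SE 0.38) on the log2 scale, Grm2 was lower (−0.85, SE 0.24), and Grm5 was not called. In all, 5 of the 6 members differed between CB and CX, where 61.7% of all genes were called, 4 between HIP and CX, where 46.5% were called, and 3 between CB and HIP, where 49.5% were called. Without the S3 mice Grm7 differed between CB and CX by 1.13, and Grm5 was then called as lower in CB (−0.83, SE 0.13). The call of Grm5 was also gained without WT replicate 3 (−0.56) or 4 (−0.54). The call of Grm8 between CB and CX was lost without the S3 mice (0.65, adjusted p = 0.21). Between CB and HIP, Grm7 was higher in CB by 0.95 (adjusted p = 0.037 by edgeR). That call was lost without WT replicate 4 (0.72) and with no block by mouse (0.73). Without the S3 mice the value was 0.40 and stayed called (adjusted p = 0.040 by edgeR). For Grm5 between CB and HIP the estimate turned from 0.04 (not called) to −0.48 (SE 0.13, adjusted p = 0.015 by the quasi-likelihood test) without them.

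The embryonic forebrain libraries fell into separate sets. In the labels the E17.5 mice have names that start with S2, S3 or S4, a prefix that the labels do not explain, and each prefix covers 2 WT and 2 HET mice. In CX the 4 S3 mice had lower Grm2, Grm3, Grm5, Grm7 and Grm8 than all 8 other mice, without overlap, which held for 13.0% of all genes at 1 CPM or more. In HIP this was so for Grm5, Grm7 and Grm8, beside 10.2% of all genes, and in CB for Grm3 alone, beside 5.89%.

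For Grm5 in CX the S3 mice had 63.9 and 78.6 CPM (WT) and 55.4 and 71.7 CPM (HET), and the other mice 150 to 211 CPM, 2.69 times as much on average. For Grm7 in CX the S3 mice had 3.83 to 6.00 CPM and the others 14.6 to 26.1 CPM, 4.08 times as much. In HIP the corresponding ratios were 3.06 for Grm5 and 2.81 for Grm7. In CB, by contrast, Grm5 was at 99.5 ± 15.4 CPM in the S3 mice (n = 4) and 101 ± 8.00 CPM in the others (n = 8), and Grm7 at 49.5 ± 3.90 and 46.4 ± 3.23 CPM, with overlapping ranges.

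Markers moved with the prefix as well. The summed level of 6 proliferation genes, a list chosen after the data were seen, was 788 to 934 CPM in CX of S3 mice against 326 to 505 CPM in the others, and 874 to 1118 against 501 to 726 CPM in HIP. In CB it was lower in the S3 mice, 591 to 732 against 798 to 944 CPM. The oligodendrocyte precursor list of 4 genes was at 21.2 to 29.0 CPM in CX of S3 mice and at 62.4 to 116 CPM in the others. GABAergic interneuron markers were at 109 to 122 CPM in CX of S3 mice against 133 to 170 CPM, and at 42.5 to 73.8 against 96.2 to 218 CPM in HIP. The list of Golgi and glycinergic interneurons, which is not particular to the cerebellum, was at 7.13 to 9.79 against 16.5 to 27.8 CPM in CX. In HIP that list was at 7.65 to 11.2 against 16.9 to 28.4 CPM. In CB the astrocyte list was at 625 to 779 CPM in the S3 mice against 887 to 1264 CPM, and the granule cell list at 285 to 322 against 409 to 505 CPM. Library depth did not separate the sets in CX, with 29011567 to 31638138 reads against 25782784 to 34893125 reads. The part of the prefix, of the proliferation genes and of these marker lists in the levels of the receptors was not tested. Without the S3 mice the rise from E17.5 to P7 in WT CX was smaller but stayed called for each member, at 1.22 for Grm5 (SE 0.07), 2.38 for Grm7 (SE 0.10), 2.10 for Grm8 (SE 0.16), 1.24 for Grm3 (SE 0.14), 1.39 for Grm2 (SE 0.16) and 2.92 for Grm4 (SE 0.22), beside 80.2% of all genes.

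**Figure D3:**
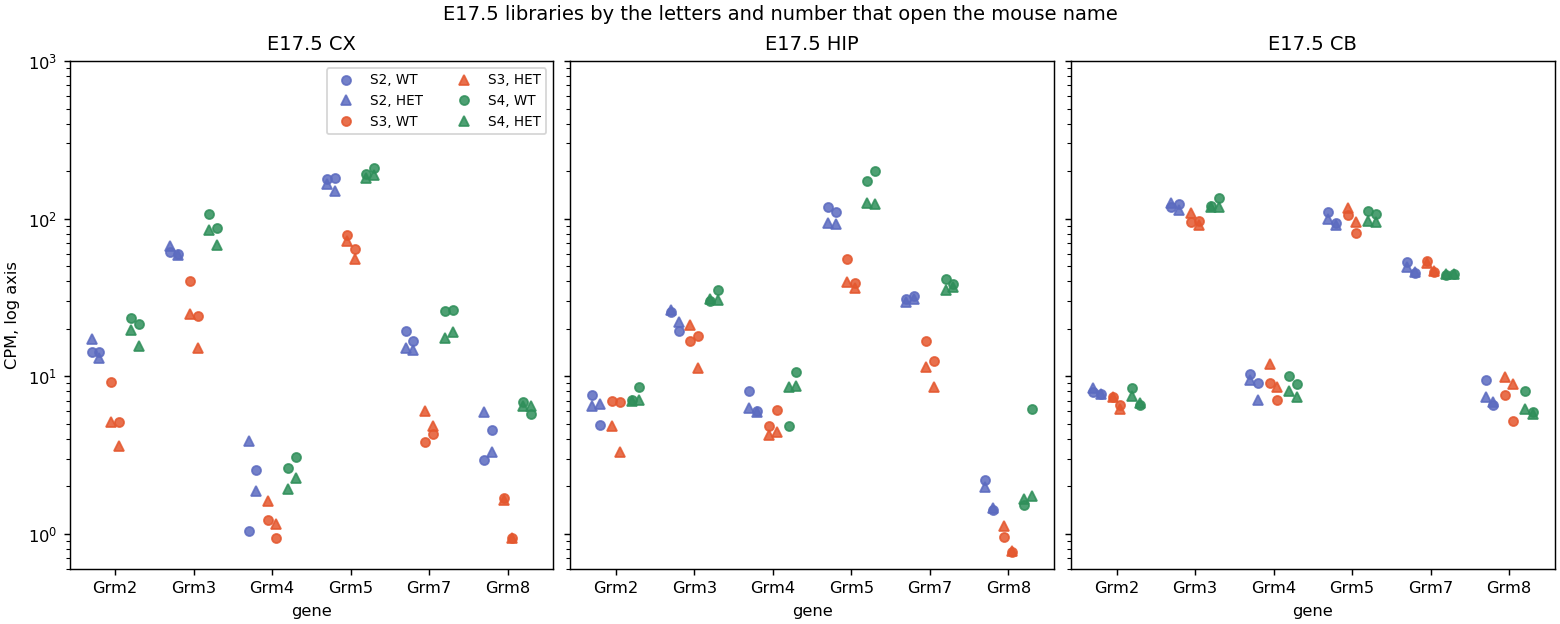
The 6 receptor genes in the E17.5 libraries by the prefix of the mouse name. The x axis gives the gene, the y axis CPM on a log scale, circles are WT and triangles HET mice, and colour marks the prefix S2, S3 or S4. In CX the S3 points of Grm2, Grm3, Grm5, Grm7 and Grm8 lie below all others, and in CB the prefixes mix for all genes but Grm3.

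The comparison the study was built for, HET against WT, gave no call for a receptor. Of 54 tests, 1 per member in each of the 9 datasets, 0 passed by the quasi-likelihood test of edgeR, 0 by DESeq2, and 1 had an unadjusted p under 0.05. With Cul3 as the only gene called, 0.00603%, 0.00586% and 0.00568% of genes passed at E17.5 in CX, HIP and CB, 0.00566%, 0.00563% and 0.00570% at P7, and 0.00569%, 0.00584% and 0.00584% at P35. Levels of the genotypes overlapped for all 6 members in all 9 datasets, where 0.595% of all gene by dataset pairs had ranges that did not overlap. The estimates lay between −0.60 and 0.20 on the log2 scale, 32 of them below 0 and 22 above.

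How firmly a change can be bounded differed between datasets. In 47 of the 54 tests the 95% interval stayed within 1 log2 unit on either side. The widest intervals were those of E17.5, such as −1.58 to 0.38 for Grm8 in HIP and −1.40 to 0.76 for Grm7 in CX, in the regions where the S3 mice stood apart. The estimate for Grm8 in HIP, −0.60, was 0.07 without WT replicate 6, which had 6.21 CPM where the next WT library had 2.20 CPM. With the prefix as a block, an alternative chosen after the data were seen, it was −0.43. In that fit Grm5 in HIP had the lowest unadjusted p of the receptors at E17.5, 0.00035 by edgeR, with a log2 change of −0.41 and an adjusted p of 0.46, and no receptor was called. The planned block by replicate number also called no receptor, and 6 tests had an unadjusted p under 0.05 by edgeR. All 6 were lower in HET mice: Grm2, Grm3 and Grm5 in E17.5 CX, Grm5 and Grm7 in E17.5 HIP, and Grm4 in P7 CX. Their lowest adjusted p was 0.14 by edgeR, for Grm5 in E17.5 CX. Without a block, the 95% interval for Grm5 ran from −0.09 to 0.12 in P7 CX and from −0.09 to 0.11 in P35 HIP.

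In the fit without a block, the lowest unadjusted p belonged to Grm4 in P7 CX, with 13.99 ± 2.07 CPM in HET and 18.1 ± 3.84 CPM in WT mice (n = 6 each). The HET mice ran from 11.6 to 16.4 CPM with a median of 13.6, and the WT mice from 14.5 to 25.1 CPM with a median of 16.6, so the ranges overlapped. The log2 change was −0.37 (SE 0.13) with an adjusted p of 0.90 by the quasi-likelihood test. Its unadjusted p was 0.013 and lay between 0.0055 and 0.031 with 1 mouse left out in turn.

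Grm4 and Grm2 were both lower on average in adult HET than in adult WT cerebellum, and neither was called. For Grm4 the log2 change was −0.25 (SE 0.13, adjusted p = 0.36 by edgeR) and went to −0.09 without WT replicate 3, whose 742 CPM stood apart. For Grm2 it was −0.24 (SE 0.13, adjusted p = 0.38 by edgeR) and went to −0.10 without the same mouse, whose 20.8 CPM stood above 13.1 to 14.8 CPM in the other WT mice. That library also had the highest summed granule cell markers of its group, 6210 against 4951 to 5266 CPM, and the highest oligodendrocyte markers, 5115 against 2231 to 4674 CPM. It had the lowest cerebellar markers, 1804 against 2148 to 2281 CPM, and the highest hippocampal markers, 388 against 152 to 286 CPM. Its Golgi and glycinergic list was highest too, 203 against 151 to 172 CPM, and it lay outside its group for most marker lists. The part of these markers in the values of Grm4 and Grm2 was not tested.

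Grm7 in P7 CB was at 17.8 ± 1.44 CPM in HET and 15.96 ± 2.45 CPM in WT mice, a log2 change of 0.18 (SE 0.09, adjusted p = 0.99 by edgeR). Without WT replicate 6, which had 20.9 CPM against 14.6 to 15.7 CPM in the other WT mice, it was 0.27 and still not called (adjusted p = 0.16).

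Whether the genotype effect changed with period or region was tested as well. In the test of genotype by period 0 of 6 members were called in CX, HIP or CB, with 0% of all genes called in each. In the test of genotype by region 0 of 6 were called at E17.5, P7 or P35, with 0%, 0% and 0.00525% of all genes called. None of these 36 member tests had an unadjusted p under 0.05 by edgeR, and DESeq2 called 0 of them.

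**Figure D4:**
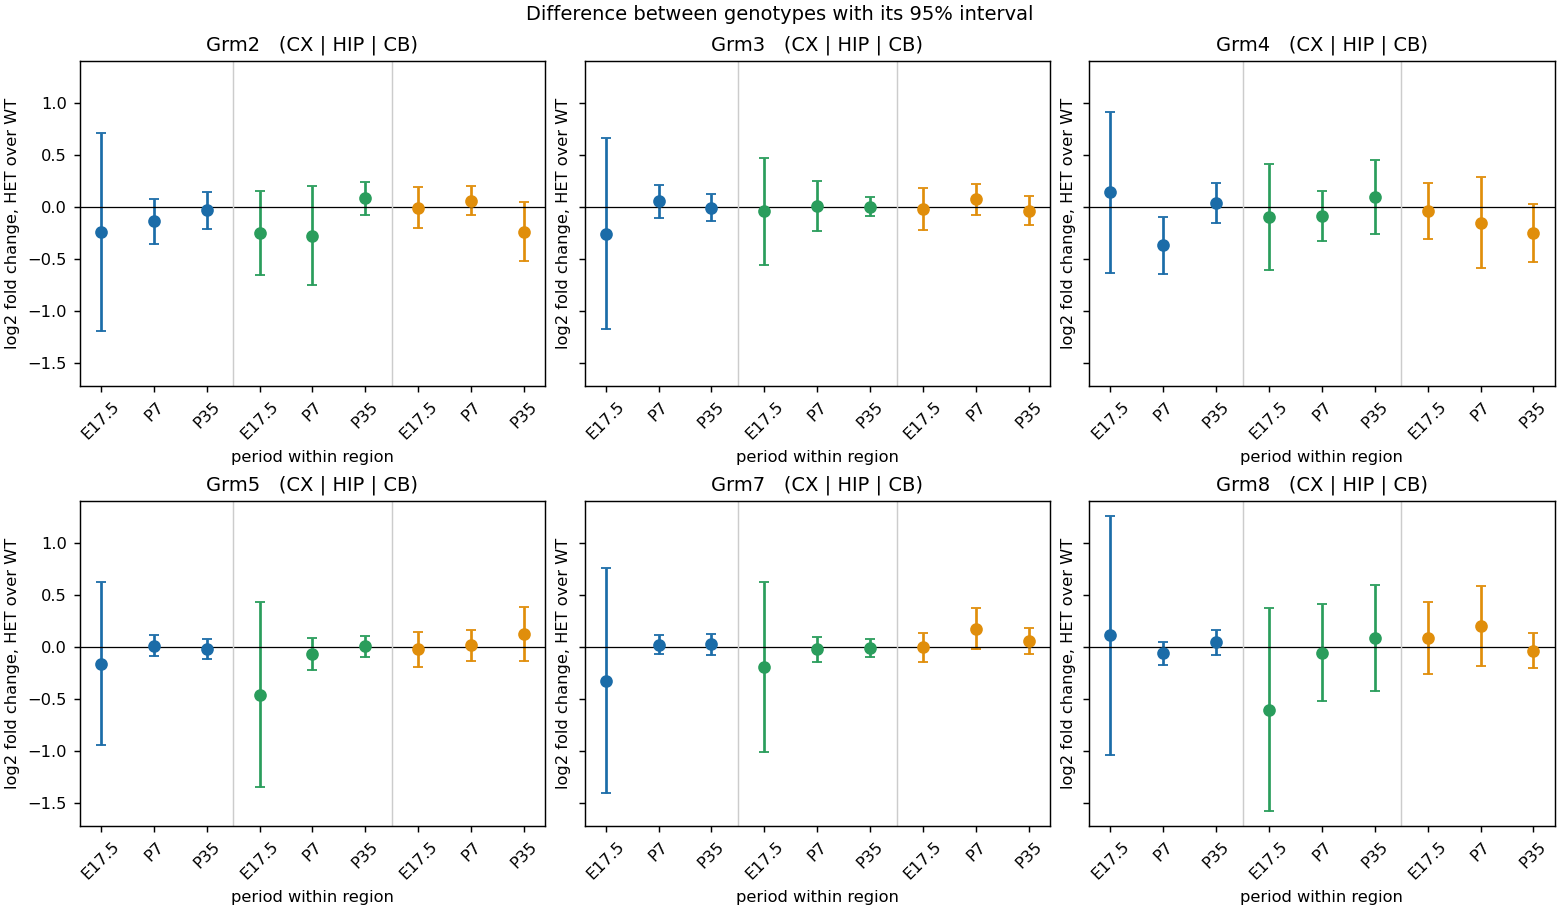
Difference between HET and WT mice for the 6 receptor genes. The x axis gives the period within CX (blue), HIP (green) and CB (orange), the y axis the log2 fold change of HET over WT, and bars are 95% intervals. The intervals are widest at E17.5 in CX and HIP, and all but that of Grm4 in P7 CX include 0.

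The genes that work with these receptors were taken from 4 lists. For Gq signalling, which Grm5 feeds, 6 of 7 genes were called in WT CB from E17.5 to P7 (4 up, 2 down) and 6 of 7 from P7 to P35 (5 up, 1 down), with a median log2 change of 0.41 and 1.63, against −0.01 and 0.01 over all genes, of which 71.2% and 79.4% were called. Itpr1, the calcium release channel of the endoplasmic reticulum, rose 5.85-fold and then 7.40-fold, from 116.5 ± 47.1 to 686 ± 72.1 and 5036 ± 520 CPM. Itpr1 thus rose in the cerebellum from P7 to P35 while Grm5 fell.

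Among 8 partners of the receptors at the synapse, 7 were called in CB from E17.5 to P7 (4 up, 3 down) and 5 from P7 to P35 (2 up, 3 down), beside the same shares of all genes. Homer3, a scaffold that binds group I receptors, rose from 23.9 ± 1.83 to 84.9 ± 6.88 and 264 ± 18.1 CPM, 3.52-fold and 3.14-fold. Homer2, a scaffold of the same family, had 143 ± 2.82 CPM at P7 and 21.7 ± 6.65 CPM at P35, a fall by 2.71 on the log2 scale (SE 0.14). The adhesion proteins that hold group III receptors across the synapse were scarce there, with Elfn1 falling by 2.13 (SE 0.32) after P7 to 0.70 ± 0.49 CPM and Elfn2 by 1.21 (SE 0.17) before it.

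For ligand supply and removal, 7 of 8 genes were called in WT CX from E17.5 to P7 (6 up, 1 down) and 7 from P7 to P35 (4 up, 3 down), where 81.9% and 67.7% of all genes were called. The glial glutamate transporter Slc1a2 rose 15.6-fold to P7 (from 64.8 to 1046 CPM on average, with an SD of 488 CPM at P7), and Slc1a6, a transporter known from Purkinje cells, rose 5.05-fold. Rimkla and Rimklb, which make N-acetylaspartylglutamate, an agonist of Grm3, fell 4.18-fold and 4.03-fold from P7 to P35. For the Gi/o arm, 10 of 11 genes were called in CX in the first interval (9 up, 1 down) and 8 in the second (4 up, 4 down). Kcnj9, a subunit of the potassium channels that Gi/o opens, rose 19.9-fold and then 2.90-fold, and Kcnj6, of the same channels, 15.5-fold in the first interval. Gnai3, a Gi alpha subunit, fell 2.51-fold in the second. In HIP the counts for the ligand, partner, Gq and Gi/o lists were 6, 6, 6 and 9 up and 1, 1, 0 and 2 down in the first interval, and 3, 6, 3 and 5 up and 4, 2, 1 and 2 down in the second, where 78.0% and 62.7% of all genes were called. No gene of the 4 lists was called for genotype in any of the 9 datasets.

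The genes most like each receptor were sought by the Pearson correlation of mean log2 CPM over the 9 WT groups, among 20247 genes. The 9 points share mice, and the values are a description only. Nearest to Grm2 were Npas2 (0.99), Tubg2 (0.97) and Atxn1 (0.97), and to Grm3 Pcdh10, Il1rapl2 and Gm2136 (all 0.95). Alpk2, Trim65 and H6pd (all 0.98) were nearest to Grm4. Crybb1 (0.99), Ccl28 (0.98) and Gm27040 (0.98) were nearest to Grm5, Ccdc65 (0.99), Gprasp1 (0.98) and Tmem53 (0.97) to Grm7, and Gm42617 (0.97), Gm43175 (0.96) and Gm43174 (0.96) to Grm8. Among the members themselves the highest value was that of Grm3 with Grm8, 0.83, and the lowest that of Grm4 with Grm5, −0.62.

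Ordered over the 9 WT groups, Grm4 spanned the widest range, 274-fold from adult CB to E17.5 CX, and Grm5 spanned 38.1-fold from adult HIP to adult CB. Grm8 spanned 13.8-fold, Grm3 8.03-fold, Grm7 7.46-fold and Grm2 7.16-fold. Neighbours in these orders often overlapped: ranges of the mice overlapped in 4 of the 8 neighbouring pairs for Grm4, Grm5 and Grm7, in 5 for Grm3, in 6 for Grm8 and in 7 for Grm2. The top group stood clear of the next for Grm4 (adult CB), Grm7 (P7 CX) and Grm8 (adult CX), whereas for Grm2 and Grm3 (P7 and adult CX) and for Grm5 (adult and P7 HIP) the top 2 groups overlapped.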

How the data were processed

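Per the labels, libraries were stranded total RNA depleted of ribosomal RNA, and the submitters' processing notes name cutadapt 1.14, STAR 2.5.3a, RSEM 1.3 and the mouse build GRCm38.p5. The authors deposited estimated counts per gene from RSEM in 1 table of the 108 libraries, with 5.765% of values not whole, and these expected counts were rounded here. RSEM shares reads among overlapping or similar genes, so that a value can depend on such neighbours. Groups came from the labels. Symbols were found for 53274 of 53465 gene identifiers, and gene positions and lengths came from GENCODE M21 (GRCm38).

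Tests were run in R 4.3.3 with edgeR 4.0.16: TMM scaling, a filter on low counts (minimum count 10, minimum total 15), the quasi-likelihood test, Benjamini-Hochberg adjustment over all genes and a call at an adjusted p of 0.1 or less. Genotypes were compared within each period and region, periods within each region in WT mice, and regions within each period in WT mice with mouse as a block. SEs and 95% intervals come from these fits. DESeq2 1.42.0, other scalings, no filter, the 2 adult mice put back, blocks, sex by Xist, factors of unwanted variation and leaving out mice were alternatives. The scripts were tested on simulated data. Intervals cover the spread between the mice sampled.

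The receptors, the lists and the tests were chosen with earlier results of these data known. Genes other than the members were named by a rule: the 2 genes per list with the largest change in each interval in the region described, and the 3 genes nearest to each member. One gene that the rule names is not reported here. The cerebellum was described for Gq signalling and partners and the cortex for the other lists.

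WT and HET libraries share replicate numbers that mark no common litter in the labels. Same-numbered mice of E17.5 and of P7 do share the prefix of the mouse name. Deviations of same-numbered libraries from their group means correlated above 0.1 in every pair only in P35 CX (0.11 to 0.39, 5 pairs), and no call there changed with the block. In E17.5 CX the values ran from −0.03 to 0.77 and in P7 CX from 0.097 to 0.47, each with 5 of 6 pairs above 0.1. In P7 HIP 1 of 6 pairs was above 0.1.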

Additional observations from a re-analysis of the deposited data

Results flagged for a closer look

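All 6 receptors changed differently over time in the 3 regions of WT mice, by a test of period by region with mouse as a block, chosen after the data were seen, which 87.7% of all genes passed. The adjusted p by edgeR was 4.02e-07 for Grm2, 1.96e-17 for Grm3, 4.59e-18 for Grm4, 1.06e-17 for Grm5, 2.93e-14 for Grm7 and 3.99e-10 for Grm8.

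Of 108 sets made of 1 receptor in 1 group of mice, 10 held a library whose gap to the rest passed Dixon's 95% value, and chance gives about 1 in 20. In adult WT cerebellum replicate 3 was highest for Grm4 (742 CPM, the next 513 CPM) and for Grm2 (20.8 CPM, the next 14.8 CPM). In adult HET cerebellum replicate 2 was highest for Grm2 (15.5 CPM, the next 12.8 CPM) and replicate 3 for Grm7 (26.5 CPM, the next 24.8 CPM). In P7 WT hippocampus replicate 6 was highest for Grm2 (28.6 CPM, the next 17.4 CPM) and replicate 1 lowest for Grm7 (85.3 CPM, the next 91.1 CPM). The Grm2 library also had the lowest sum of hippocampal markers of its group, 682 against 861 to 910 CPM, and its part was not tested. In P7 WT cerebellum replicate 6 was highest for Grm7 (20.9 CPM, the next 15.7 CPM), with choroid plexus markers at 1469 CPM against 3.67 to 345 CPM in the others. Its oligodendrocyte markers were also highest, 1792 against 295 to 1371 CPM, and it lay outside its group for further lists. The part of these lists was not tested. In P7 HET cortex replicate 3 was lowest for Grm3 (168 CPM, the next 199.6 CPM), with the lowest forebrain markers, 442 against 541 to 591 CPM, and the highest astrocyte markers, 985 against 838 to 939 CPM. In E17.5 HET cerebellum replicate 3 was highest for Grm5 (117 CPM, the next 99.6 CPM), with the lowest cerebellar markers, 609 against 637 to 863 CPM, and the highest hippocampal markers, 167 against 101 to 132 CPM. The part of these markers was not tested. In E17.5 WT hippocampus replicate 6 was highest for Grm8 (6.21 CPM, the next 2.20 CPM), and its cerebellar markers summed to 268 CPM against 78.5 to 152 CPM. Its GABAergic interneuron markers were also highest, 218 against 56.2 to 145 CPM, and its forebrain markers lowest, 389 against 448 to 614 CPM. It lay outside its group for further lists, and the part of these lists was not tested.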

How the results depend on the processing

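The number of receptor tests called stayed within 1.5 times of the reported value under every alternative run. It was 0 of 54 for genotype throughout, also with the replicate block, where 6 tests instead of 1 had an unadjusted p under 0.05. It was 22 to 32 of 36 between periods (23 as reported, 24 with the replicate block, 29 without the S3 mice, 32 with each pair of periods on its own, 22 to 25 with 1 WT mouse per group left out). Between regions it was 47 to 51 of 54 (48 as reported, 47 with no block by mouse, 47 to 49 with 1 WT mouse left out), and it was 0 of 18 for each interaction of genotype. As reported, 62.7% to 81.9% of all genes were called in the single period comparisons. In the single region comparisons 46.5% to 82.9% were called. Over all genes the calls for genotype in the 9 datasets went from 9 to 63 with the replicate block, 167 with the likelihood ratio test of edgeR, 241 with DESeq2, and 588 and 1516 with 3 and 5 factors of unwanted variation. The replicate block rests on numbers that pair the libraries unevenly by the check above, and it changed no call of a receptor for genotype.

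Among the changes between periods and regions, signs turned for uncalled values near 0, and in 1 case past the threshold. For Grm2 from P7 to P35 in CX the log2 change of 0.012 became −0.0135 with upper-quartile scaling, −0.0192 with no filter and −0.0109 with the 2 adult mice put back, and ran from −0.0736 to 0.135 with 1 WT replicate left out. For Grm5 from P7 to P35 in HIP it became −0.0933 with the replicate block. Between CB and HIP at E17.5, Grm2 ran from −0.00617 to 0.186 and Grm5 from −0.172 to 0.229 with 1 WT replicate left out. In that comparison Grm5 became −0.195 with no block by mouse and −0.478, now called, without the S3 mice. For genotype, Grm8 in E17.5 HIP ran from −0.78 to 0.07 with 1 mouse left out, the latter without WT replicate 6. The causes were not tested. With no filter on low counts the median change of all genes between periods reached 0.157, and under the scalings at most 0.072 in size. Depth limits Grm8 and Grm4 most, with 13 and 27 reads in their lowest libraries, both at E17.5.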
